A study of Triticum aestivum with 6 samples.

Results

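Bread wheat, Triticum aestivum, has 3 subgenomes, named A, B and D. 1BS is the short arm of chromosome 1B. The 1BS identifiers are the rows of the count table whose gene identifier names that arm, and there are 1445 of them among 102602 rows. RNA was sequenced from inferior grains, which set later in a spike and usually fill less, of the field-grown cultivar Xinong 538. The titles gave 2 groups, CK and SPD, with 3 libraries each, and spelled out neither name. All 6 libraries carried the same treatment text, exogenous spermidine, and the same stage entry, which named days 8 and 16 post anthesis. Neither the treatment nor the stage could therefore be assigned to a group, and nothing in the labels limits or describes the groups further.

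Arm 1BS is known in wheat for the Gli-B1 and Glu-B3 loci, which encode gliadins and low molecular weight glutenins, the storage proteins of the endosperm that give dough its quality. It also carries a nucleolus organiser, a cluster of ribosomal RNA genes. In many cultivars breeders have replaced this arm by the rye arm 1RS. The labels do not say which arm Xinong 538 carries, and it was not tested. Most wheat genes have a closely similar copy on the matching arm of each subgenome, which for 1BS are the arms 1AS and 1DS. No 1BS identifier was matched in the reference gene table, so the identifiers below have no gene name, position or function.

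Library totals ran from 10561224 to 13088727 counts, so a level of 1 CPM (counts per 1000000 counts of a library) corresponded to 10.6 to 13.1 counts. The tissue label was checked with 8 endosperm genes, of which all 8 had counts in every library, and their summed level ran from 14499 to 18628 CPM. GLU-D1-2B was far below the rest, at 2.53 to 5.68 CPM. The lowest value of any other of these genes was 420 CPM, for BMY1. The summed level of 6 genes of green tissue ran from 429 to 624 CPM in 5 libraries and was 877 CPM in SPD replicate 3. The endosperm sum was highest in the same library, with 16179 CPM as the highest of the other 5. Its genes did not all move this way. PINA, GLU-D1-2B, AVNLA and BMY1 were highest there, with AVNLA running from 3117 CPM in SPD replicate 2 to 6276 CPM. PINB, WAXY, AGP-S and AGP-L were highest in other libraries, and AGP-L was lowest in SPD replicate 3, at 918 CPM. SPD replicate 3 also stood apart on the first principal component of all tested genes, at 140 against -42.6 to -20.7 for the others. On the second component SPD replicate 1 stood apart, at -105 against 0.18 to 42.3 for the others. The 2 components held 35.3% and 21.3% of the variance. Values of 1BS without SPD replicate 3 are given where that library moves them.

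Few 1BS identifiers were detected in the grain. Averaged over the 6 libraries, 240 of the 1445 reached 1 CPM, which is 16.6%, against 45.8% of the 1516 identifiers of 1AS and 46.2% of the 1246 identifiers of 1DS. The long arm of the same chromosome, 1BL, stood at 51.3% of 2695, and all identifiers together at 46.6%. Among the 41 arms, with 3B counted as a whole chromosome, 1BS had the lowest share. The other 40 ran from 29.4% for 3B to 55.4% for 1AL, with a median of 48.3%. The identifiers of 3B include a second form of name, and the part of this in its share was not tested. The lowest after 3B was 7AS, at 43.8%. These shares are a description without a test, since the identifiers of an arm share their libraries and are not replicates.

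**Figure D1:**
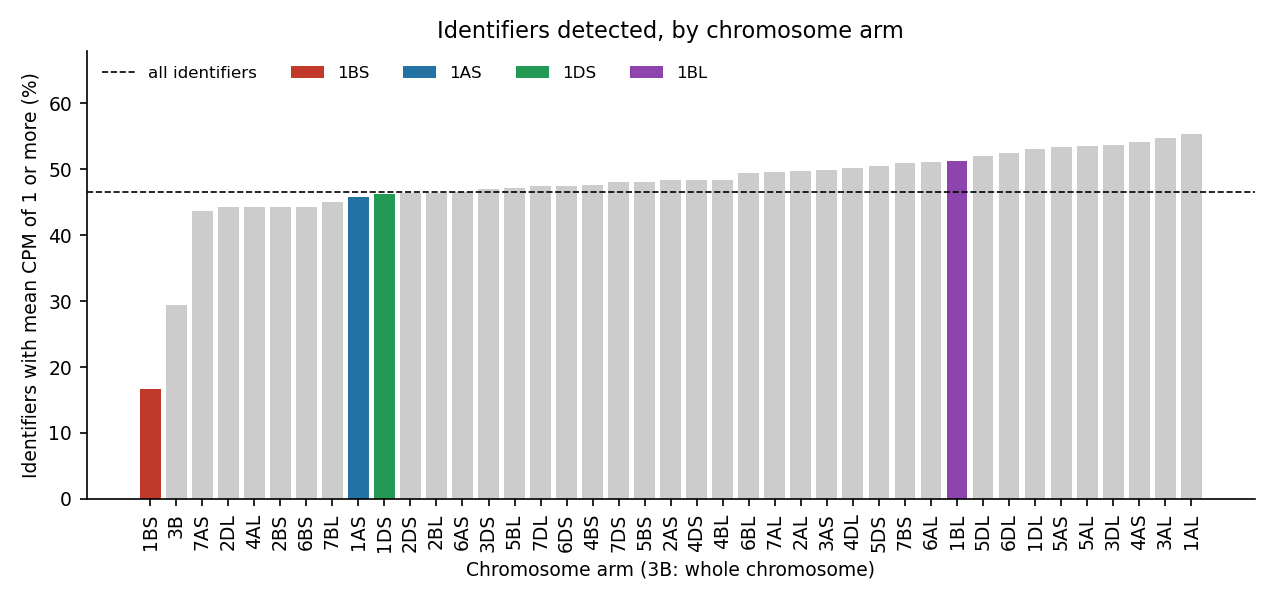
Percentage of identifiers with a mean of at least 1 CPM over the 6 libraries (y axis) for each chromosome arm (x axis), sorted from low to high, with the dashed line at the 46.6% of all identifiers. The bar of 1BS, at 16.6%, is the lowest, and those of 1AS and 1DS lie close to the dashed line.

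No read was counted in any library for 794 of the 1BS identifiers, or 54.9%. A count of 0 over all 6 libraries allows a mean level of up to 0.0414 CPM, counting error only. The corresponding share was 28.7% on 1AS and 27.4% on 1DS, and it ran from 20.4% to 47.6% over the other 40 arms. The highest of these was 3B, and the next was 4DS at 33.3%. Another 411 1BS identifiers, or 28.4%, had counts but a mean below 1 CPM.

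Relative to the sister arms, the share of 1BS was smaller at higher levels. At least 1 count was found for 45.1% of 1BS, 0.63 times the share of 1AS. At 1 CPM the ratio was 0.36, at 10 CPM it was 0.24, and at 50 CPM it was 0.066, with 3 identifiers of 1BS against 48 of 1AS, and again 0.066 at 100 CPM. In percentage points the difference from 1AS was -29.2 at 1 CPM, -12.2 at 10 CPM and -2.96 at 50 CPM. Against 1DS the ratio went from 0.62 at any count to 0.36 at 1 CPM, 0.19 at 10 CPM and 0.039 at 50 CPM. Only 1 identifier of 1BS reached 100 CPM, against 16 of 1AS and 29 of 1DS. The highest mean level on each arm was 106 CPM on 1BS, 947 CPM on 1AS and 6666 CPM on 1DS.

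**Figure D2:**
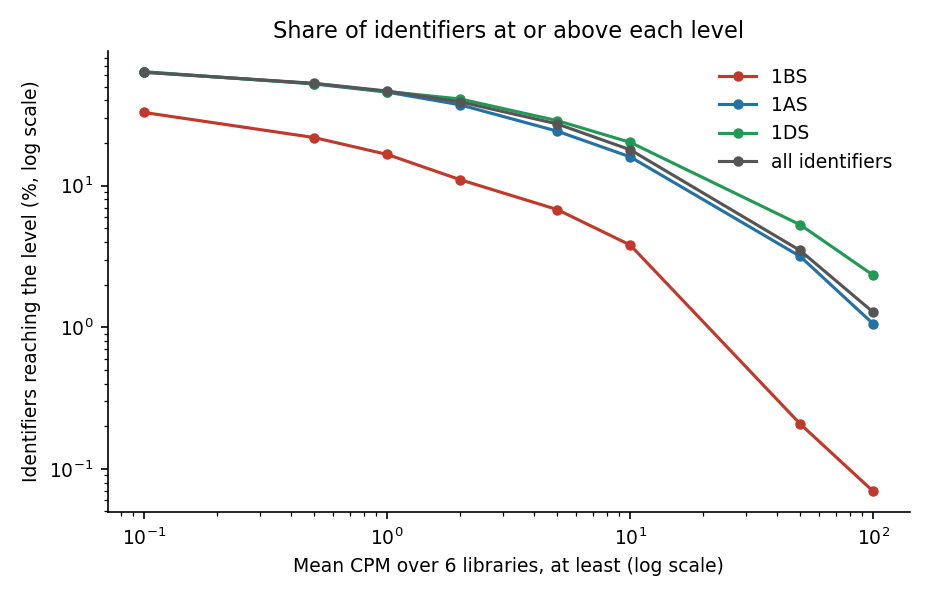
Percentage of identifiers (y axis, log scale) whose mean over 6 libraries reaches each CPM level (x axis, log scale) on 1BS, 1AS, 1DS and over all identifiers. The line of 1BS lies below the other 3 at every level drawn and falls from 32.9% at 0.1 CPM to 0.0692% at 100 CPM.

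The 240 detected 1BS identifiers also had lower levels than detected ones elsewhere. Their median was 3.37 CPM, with quartiles of 1.65 and 9.27 CPM, against medians of 5.51 CPM on 1AS and 8.05 CPM on 1DS. Over the other 40 arms these medians ran from 4.82 to 8.05 CPM. Of the 240 identifiers, 81 had a mean between 1 and 2 CPM, 61 between 2 and 5 CPM, 43 between 5 and 10 CPM and 55 of 10 CPM or more. The last just inside the level of 1 CPM was Traes_1BS_23156BD3C with 1.01 CPM, and the first just outside was Traes_1BS_625234AEF with 0.972 CPM.

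All 1445 identifiers together held 144965 counts. They made up 1.41% of the identifiers in the table and 0.200% of the counts. On 1AS the share of counts was 1.19% and on 1DS 2.65%, and the lowest among the other 40 arms was 1.02%, on 5DS. Averaged over all its identifiers, the arm had 1.38 CPM per identifier. The same average was 5.70-fold higher on 1AS, 15.5-fold higher on 1DS and 7.06-fold higher over the whole table. These counts were not divided by gene length, which was not available here.

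The low share on 1BS was seen in every library. In CK replicates 1, 2 and 3, 16.7%, 17.2% and 15.9% of the 1BS identifiers reached 1 CPM. In SPD replicates 1, 2 and 3 the values were 15.6%, 16.6% and 15.7%. The groups overlapped, with means of 16.6% ± 0.628 in CK and 16.0% ± 0.564 in SPD (SD, n = 3), and the difference of -0.623 percentage points was about as large as the spread within a group. Within single libraries, 1BS lay 26.6 to 31.4 percentage points below 1AS and 28.7 to 31.6 points below 1DS. The lowest value of either sister arm in any library was 43.8%, and the highest value of 1BS was 17.2%.

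The share of counts on 1BS behaved alike. Replicates 1, 2 and 3 of CK had 0.208%, 0.208% and 0.197%. Those of SPD had 0.197%, 0.212% and 0.175%. SPD replicate 3 was the lowest, with a 95% Wilson interval of 0.172% to 0.177% that covers counting error only. The group means were 0.204% ± 0.00654 in CK and 0.195% ± 0.0187 in SPD (SD, n = 3), and the mean of SPD replicates 1 and 2 alone was 0.205%. In SPD replicate 3 the share of 1DS was its highest, at 3.50% against 2.45% in its lowest library, and that of 1AS lay at 1.23%, also its highest. The share of 1BL was its lowest there, as on 1BS, at 2.26% against 2.44% to 2.50% in the other libraries.

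**Figure D3:**
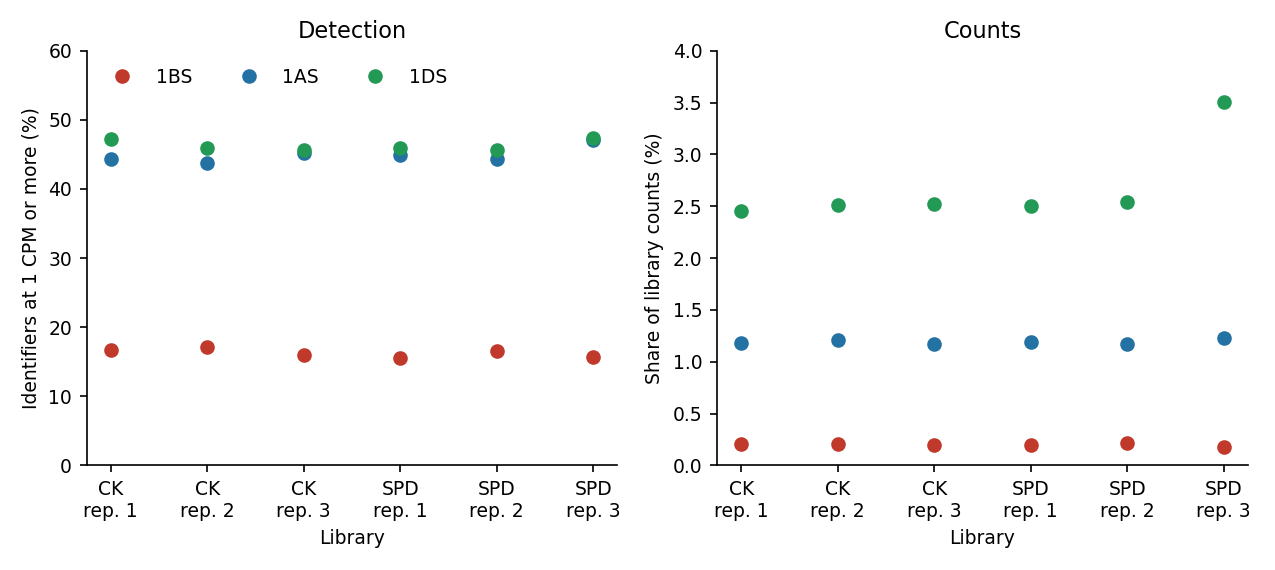
Left, percentage of the identifiers of 1BS, 1AS and 1DS that reach 1 CPM in each library; right, percentage of the counts of each library that fall on these arms. Each point is 1 library. The 6 points of 1BS lie between 15.6% and 17.2% on the left and between 0.175% and 0.212% on the right.

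Not all detected identifiers were detected in each library. Of the 316 identifiers of 1BS that reached 1 CPM in at least 1 library, 167 did so in all 6, or 52.8%, and 46 in a single library, or 14.6%. On 1AS 69.0% of 814 and on 1DS 74.6% of 665 reached 1 CPM in all 6 libraries, and over all identifiers it was 72.0% of 55008. The median level of detected identifiers was also lower on 1BS, as given above, and the part of this in the difference was not tested. No 1BS identifier had 5 CPM or more in 1 library and less than 0.1 CPM in each of the other 5.

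The 55 identifiers with a mean of at least 10 CPM made up 3.81% of the arm, against 16.0% on 1AS, 20.2% on 1DS and 17.9% over all identifiers. They held 64.1% of the counts on 1BS, and the first 3 alone held 15.04%. Of the 55, 39 were at 10 CPM or more in each library. Only 3 had a mean above 50 CPM, 17 lay between 20 and 50 CPM, and 35 between 10 and 20 CPM. The last inside the level of 10 CPM was Traes_1BS_771984F00 with 10.05 CPM, and the first outside was Traes_1BS_2649E3831 with 9.90 CPM.

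The 3 most abundant identifiers were close to each other in level and steady between libraries. Traes_1BS_F226DF9B4 had 109, 116 and 101 CPM in CK replicates 1, 2 and 3 and 104, 117 and 91.9 CPM in SPD replicates 1, 2 and 3. In the same order, Traes_1BS_217BCBF47 stood at 98.3, 103 and 99.2 CPM in the CK libraries and at 103, 105 and 86.4 CPM in the SPD libraries. The values of Traes_1BS_DD36A7A9B were 90.4, 99.9 and 92.4 CPM in the CK libraries and 98.5, 101 and 86.2 CPM in the SPD libraries. Each of them was lowest in SPD replicate 3 and highest in SPD replicate 2, and CK and SPD overlapped. Their means, from 94.8 to 106 CPM, stood well above the next identifier, Traes_1BS_1514DE4E9, at 43.9 CPM.

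Below them, the next group of identifiers had means between 27.0 and 43.9 CPM. Traes_1BS_1514DE4E9 had 46.3, 52.8 and 39.9 CPM in the CK libraries and 45.7, 53.9 and 24.8 CPM in the SPD libraries replicates 1, 2 and 3. Traes_1BS_47F027BBE had 42.9, 39.3 and 36.1 CPM in the CK libraries and 37.0, 43.7 and 16.0 CPM in the SPD libraries. Traes_1BS_7D76D695B had 34.7, 35.2 and 32.6 CPM in the CK libraries and 34.2, 39.1 and 19.4 CPM in the SPD libraries. In the other 5 libraries these identifiers ran from 39.9 to 53.9, from 36.1 to 43.7 and from 32.6 to 39.1 CPM. In all 3, SPD replicate 3 was the low library. Traes_1BS_D4CB5F655, from 17.0 to 31.8 CPM, Traes_1BS_282C4747C, from 18.7 to 31.4 CPM, and Traes_1BS_E67B9B190, from 25.8 to 41.3 CPM, were lowest in the same library. Traes_1BS_82B47CBF7 was lowest there too, at 32.3 CPM, and ran from 40.0 to 44.2 CPM in the others. Traes_1BS_30F533C7D went the other way, with its highest value of 39.9 CPM in SPD replicate 3 and 28.8 to 35.6 CPM in the rest. Traes_1BS_F4F9924F5 had 23.6, 28.5 and 26.1 CPM in the CK libraries and 31.5, 32.0 and 33.4 CPM in the SPD libraries, and its groups did not overlap.

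The remaining identifiers among the 20 most abundant had means from 20.6 to 26.5 CPM, among them Traes_1BS_D3007A1BA, which is described below. Traes_1BS_458BBF32C, Traes_1BS_548536A26 and Traes_1BS_629BAC470 were steady, with a coefficient of variation (the SD divided by the mean over the 6 libraries) of 7.98%, 8.34% and 7.22%. For Traes_1BS_442F1C1FC, Traes_1BS_F42414E18, Traes_1BS_7026E8984 and Traes_1BS_2511A5E5E it was 17.2%, 26.2%, 11.9% and 18.0%. The 35 identifiers below these had means from 10.05 to 19.9 CPM, and their values in single libraries ran from 6.34 to 26.6 CPM.

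**Figure D4:**
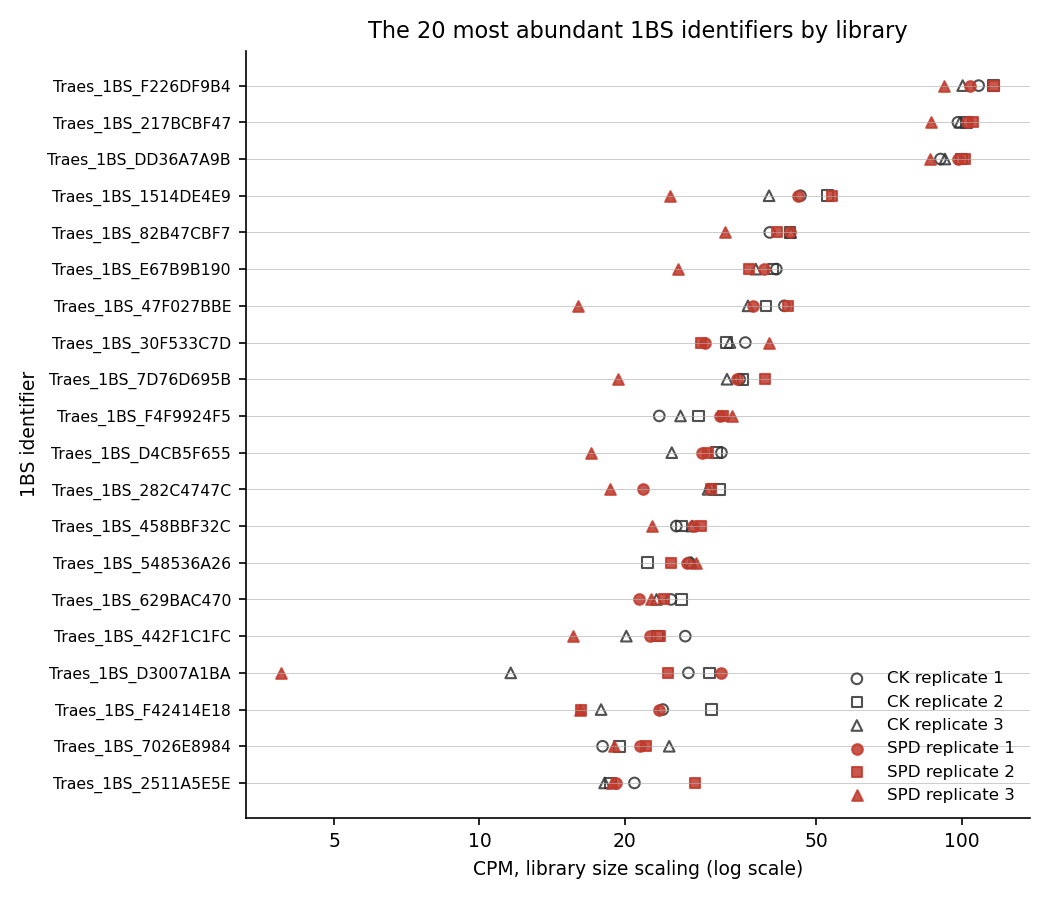
CPM by library (x axis, log scale) of the 20 most abundant 1BS identifiers (y axis), with open symbols for CK, filled ones for SPD and 1 shape for each replicate number. The first 3 lie near 100 CPM, and the filled triangle of SPD replicate 3 lies to the left of the other points in many rows, farthest for Traes_1BS_D3007A1BA at 3.88 CPM.

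The most variable of the 55 was Traes_1BS_D3007A1BA. It had 27.1, 29.99 and 11.6 CPM in CK replicates 1, 2 and 3 and 31.6, 24.6 and 3.88 CPM in SPD replicates 1, 2 and 3, with 41 to 387 counts. The highest value was 8.15 times the lowest, and the coefficient of variation was 52.0%, or 31.8% without SPD replicate 3. The replicates numbered 3 of both groups were low, and the groups overlapped. Second was Traes_1BS_B47CA2FE6 with 14.4, 6.87 and 12.8 CPM in the CK libraries and 20.3, 11.01 and 15.2 CPM in the SPD libraries, and a coefficient of variation of 33.5%, or 37.7% without that library. At the other end, Traes_1BS_190C56A4E stayed between 13.6 and 14.96 CPM and Traes_1BS_64E9CC6E0 between 14.9 and 16.7 CPM, with coefficients of 3.72% and 3.92%. The median coefficient over the 55 was 15.9%, and counting error alone would give a median of 7.04%. Over the 17212 identifiers of all arms between 10 CPM and the highest 1BS mean, these medians were 14.6% and 6.27%. Without SPD replicate 3 the median coefficients were 12.4% for the 55 and 12.7% for the 17212.

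SPD replicate 3 was the lowest library for 26 of the 55, or 47.3%, and for 35.8% of all 18387 identifiers with a mean of at least 10 CPM. In that library 15 of the 55, or 27.3%, lay below 0.7 times the mean of the other 5 libraries, and none lay above 1.4 times that mean. Over all identifiers at this level the shares were 12.7% and 6.54%, on 1AS 11.2% and 8.68%, and on 1DS 11.5% and 6.35%. The summed level of the 55 was 1078 CPM in SPD replicate 3 and 1259 to 1366 CPM in the other 5. The ratios of 0.7 and 1.4 were chosen after the values had been seen and carry no test. As given above, the summed levels of the green tissue and endosperm genes were both highest in this library. The summed level of the 55 was lowest there. The part of the tissue genes in these values was not tested. Without SPD replicate 3, 58 identifiers of 1BS had a mean of at least 10 CPM.

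No 1BS identifier was called different between SPD and CK after adjustment for all genes tested. In simulated data the same test recovered only 42% of 2-fold changes, so changes of this size could be missed. Of the 1445 identifiers, 268 passed the filter on low counts, and the quasi-likelihood test of edgeR with Benjamini-Hochberg adjustment over 50136 genes called 0 of the 268 at an adjusted p of 0.05, where 0% of all genes were called. At an unadjusted p under 0.05 lay 9 of the 268, or 3.36%, with 3 higher and 6 lower in SPD, against 3.59% of all genes tested. Without SPD replicate 3 the number was 11, or 3.81%, against 4.84% of all genes. The Wald test of DESeq2 called 0 identifiers of 1BS, where it called 0.00411% of all genes. It placed 7 of 651 below an unadjusted 0.05, or 1.08%, against 2.6% of all genes. This fit took every identifier with a count, so the 2 sets differ in level. A mean below 1 CPM was found for 411 of the 651, against 25129 of the 72925 over the whole table. With limma-voom the counts were 0, as over all genes, and 9, or 3.36%, against 3.56% of all genes. Groups did not overlap in 23 of the 268, 11 with SPD above and 12 with SPD below, and in 9.51% of all genes tested. The share on 1BS was 8.58%, close to that background.

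Fitted log2 fold changes of the 268 were spread around 0. Their median was -0.03, with quartiles of -0.28 and 0.19, and 143 were negative and 125 positive. Over all genes tested the median was 0.0048. Among the 55 identifiers at 10 CPM or more the median was -0.039, and values ran from -0.67 to 0.45. Over all 18382 tested genes at this level the median was -0.017. In edgeR 4 of the 55, or 7.27%, had an unadjusted p under 0.05, against 3.76% of all at this level. The 95% interval of a 1BS identifier reached a median of 0.91 on the log2 scale to either side, and 0.44 among the 55.

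**Figure D5:**
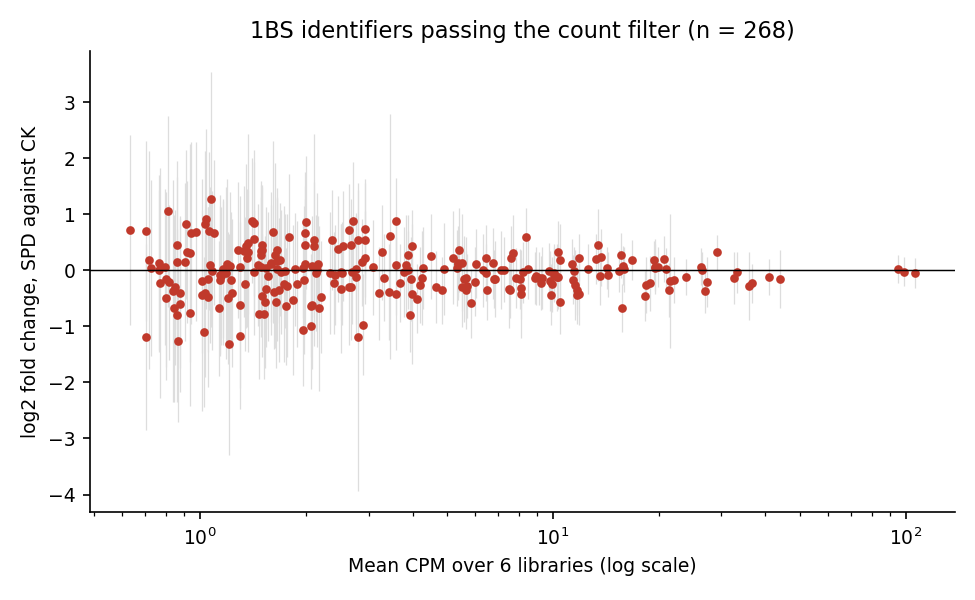
Log2 fold change of SPD against CK from edgeR (y axis) for the 268 tested 1BS identifiers by their mean CPM over 6 libraries (x axis, log scale). Grey bars are 95% intervals. Points scatter on both sides of 0, with wider intervals at low CPM, and none was called.

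The identifiers with the lowest unadjusted p in each direction are given as examples, with CPM scaled by TMM. Traes_1BS_44C7DCE78 had 19.8, 23.1 and 14.99 CPM in CK replicates 1, 2 and 3 and 11.7, 12.5 and 12.0 CPM in SPD, with 124 to 257 counts. Its log2 fold change was -0.67 (SE 0.20, n = 3 per group), with an unadjusted p of 0.0057 and an adjusted p of 0.997 in edgeR. All SPD values lay below all CK values. Traes_1BS_E49041E1E1 had 5.32, 5.40 and 4.23 CPM in the CK libraries and 2.49, 2.70 and 3.38 CPM in the SPD libraries, at -0.80 (SE 0.30). A second identifier, Traes_1BS_E49041E1E, carries the same name without the last digit and, chosen after its values were seen, lay on the other side, at 0.85 (SE 0.59). The labels do not say what the last digit stands for, and reads of such a pair could be split between its members. Of the 1445 identifiers, 81 share the first 9 characters after the arm name with at least 1 other.

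In the other direction, Traes_1BS_1513A857E had 2.54, 1.71 and 3.31 CPM in the CK libraries and 4.02, 4.32 and 5.69 CPM in the SPD libraries. Its log2 fold change was 0.89 (SE 0.35). Traes_1BS_F1B481DED had 7.46, 5.22 and 7.38 CPM in the CK libraries and 8.61, 12.0 and 9.65 CPM in the SPD libraries, at 0.59 (SE 0.24). In both, every SPD value lay above every CK value, and neither was called, with an adjusted p of 0.997 in edgeR. With 1 library left out at a time, Traes_1BS_1513A857E ran from 0.68 to 1.13 and Traes_1BS_F1B481DED from 0.44 to 0.69. The values without SPD replicate 3 were 0.72 and 0.62, and those of Traes_1BS_44C7DCE78 and Traes_1BS_E49041E1E1 were -0.67 and -0.93.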

How the data were processed

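RNA-seq counts of 6 libraries, 3 titled CK and 3 titled SPD, were used. The authors deposited raw counts per gene identifier as whole numbers without normalisation. The submitters' processing notes name the aligner HISAT2. The counting program, genome build, annotation, strand setting and treatment of reads that match several subgenome copies are unknown here (not given in the sources used here), so values of single copies are uncertain and antisense partners cannot be told apart. The labels name no plot or plant for a library, so p-values reflect the spread of these libraries alone, which may be technical. Chi-square per degree of freedom between libraries was 4.12 to 16.4, above sampling noise for each pair, and each was kept as 1 sample.

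The arm was read from the identifier in 102154 of 102602 rows. Levels are CPM by library size unless TMM is named. Detection means a mean of at least 1 CPM. SPD was compared with CK in R 4.3.3 with edgeR 4.0.16 (TMM, filterByExpr with a minimum count of 10 and a minimum total of 15, quasi-likelihood test, two-sided), fitted on the whole table. Alternatives used DESeq2 1.42.0 and limma 3.58.1. Before use, edgeR was tested on simulated data with known changes at the depth and spread of these libraries. It recovered 42% of the simulated 2-fold changes and 97% of the 4-fold changes. Most changes of 2-fold would therefore be missed, and 0 calls on 1BS do not exclude them. Recovery at the low levels of most 1BS identifiers was not tested. Descriptive values were computed in Python 3.11.15 (pandas 2.3.3, numpy 2.4.6) and Wilson intervals with scipy 1.17.1. Named identifiers are the 20 highest by mean CPM, those next to the levels of 1 and 10 CPM, the extremes of the coefficient of variation and the 2 lowest unadjusted p in each direction; a few others are said to be chosen after their values were seen. The arm, lists and levels were chosen with earlier results of these data known. The reference table is of IWGSC CS RefSeq v2.1 and matched 0 identifiers of 1BS.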

Additional observations from a re-analysis of the deposited data

How the results depend on the processing

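The lower share of detected identifiers on 1BS than on 1AS and 1DS kept its direction under every alternative tried. The share detected was 21.9% at 0.5 CPM, 11.0% at 2 CPM, 31.5% for at least 10 counts over the 6 libraries and 11.6% for at least 1 CPM in all 6. The difference from 1AS was -26.2 percentage points at 2 CPM and -25.5 for all 6 libraries, and that from 1DS was -30.8 at 0.5 CPM and -28.3 for all 6 libraries. There were 98 identifiers at 5 CPM and 20 at 20 CPM. The median of detected identifiers was 2.06 CPM with detection at 0.5 CPM and 6.74 CPM with detection at 2 CPM. Without the 100 most abundant identifiers of the table, 1BS held 0.241% of the counts. These follow from the level or total chosen. TMM scaling and thinning to the smallest total moved the share and its differences by less than 1 SD between libraries.

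Leaving out each library in turn, the share detected ran from 16.2% to 16.7%, the difference from 1AS from -29.9 to -28.6 and that from 1DS from -30.5 to -29.8. The number of called identifiers was 0 in all fits. Leaving out CK replicate 1 gave 3 identifiers of 1BS at an unadjusted p under 0.05 (1.04%, against 2.08% of all genes) and leaving out CK replicate 2 gave 5 (1.75% against 2.56%). The highest number was 12, without SPD replicate 2 (4.18% against 7.76%). The median log2 fold change was -0.10 without SPD replicate 2, and its other extreme was -0.013 without SPD replicate 3. The cause was not tested. The labels do not say that a replicate number marks a shared plot or day, so the numbers were not taken as pairs. Deviations of same-numbered samples from their group means correlated at 0.016, -0.058 and -0.029. Those of differently numbered samples correlated at -0.022 to 0.057. With the replicate number as a block, 6 identifiers had an unadjusted p under 0.05 (2.24%, against 2.88% of all genes), the median was -0.049 and the count of calls stayed at 0.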
